A study of Caenorhabditis elegans with 2 samples.

Results

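Heat shock and J-domain chaperone genes were taken as all protein-coding genes of Caenorhabditis elegans whose symbol starts with hsp- or dnj-. There were 51 of them among 19973 protein-coding genes on the 6 chromosomes, 22 with an hsp- and 29 with a dnj- symbol. The data were a map of the chromatin protein HMG-11 by chromatin immunoprecipitation and sequencing (ChIP-seq). Whole hermaphrodite L3 larvae of strain TH184 were collected 52 h after a synchronised start from starved L1 larvae. Both replicates carried the unc-119(ed3) III allele and the transgene ddIs101, which expresses HMG-11 fused to GFP and FLAG at its C-terminus, and sonicated chromatin was precipitated with an anti-GFP antibody. The 2 biological replicates formed 1 group, with no second condition. No control or untagged library was analysed here. Since whole animals were used, binding in all cells and strong binding in a few cannot be told apart, and the labels name no heat treatment.

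Chaperones of the HSP70 family hold unfolded protein in a cycle driven by ATP. J-domain proteins, which the dnj genes encode, bring clients to HSP70 and start ATP hydrolysis, and nucleotide exchange factors such as HSP110 reset the cycle. Constitutive members fold new protein in unstressed cells, organelle members do the same in the endoplasmic reticulum (ER) and mitochondria, and inducible members are switched on when heat shock factor HSF-1 binds heat shock elements in their promoters. HMG-11 belongs to the HMGA type of proteins, whose AT-hooks grip A/T-rich DNA from the minor groove.

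The files listed 30000 candidate regions for each replicate and 30000 for both replicates pooled, on genome build ce11. A gene had a listed region when a summit lay from 1000 bp upstream to 200 bp downstream of one of its transcript starts. The irreproducible discovery rate (IDR) list held 4037 peaks, and they were the 4037 strongest pooled regions, with a signal of 67.91 or more against 529.44 at the strongest region and 18.89 at the weakest listed one. A gene therefore had a peak when its best pooled rank was 4037 or better, and the same rank was applied to each replicate list. Signal is the authors' own value on a scale that the sources used here do not give, so genes are placed by rank within a list, where rank 1 is the strongest. The lists do not give read numbers, so the depth is unknown.

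The stretches under 3 strong summits of cytosolic chaperones are shown because each holds a heat shock unit, a pair of facing GAA and TTC blocks 2 bases apart (GAANNTTC or TTCNNGAA), which is in capitals. Each is the summit base with 50 bp on either side, read from the RefSeq assembly WBcel235 on the strand of the gene. The hsp-110 stretch is chrIII:8447083-8447183 on the minus strand, the hsp-1 stretch chrIV:17278520-17278620 on the plus strand and the hsp-90 stretch chrV:14685770-14685870 on the plus strand.
hsp-110: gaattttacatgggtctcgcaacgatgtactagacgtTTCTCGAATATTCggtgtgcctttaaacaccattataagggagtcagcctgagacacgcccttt
hsp-1: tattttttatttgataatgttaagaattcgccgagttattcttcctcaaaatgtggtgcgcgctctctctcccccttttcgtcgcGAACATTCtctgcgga
hsp-90: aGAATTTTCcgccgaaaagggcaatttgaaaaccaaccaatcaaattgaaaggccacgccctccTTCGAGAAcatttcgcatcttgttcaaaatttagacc
The hsp-110 stretch holds overlapping units that form a longer element, and its A+T content is 55.45%. The hsp-1 and hsp-90 stretches have 57.43% and 58.42% A+T, against 64.56% over the 6 chromosomes.

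Another set of stretches is shown for their base composition, with runs of 6 or more A or T in capitals. The 2 genes for the ER chaperone BiP, hsp-3 (chrX:6092136-6092236, minus strand) and hsp-4 (chrII:7352598-7352698, minus strand), had ranks far apart in each list, and dnj-14 (chrX:4712034-4712134, minus strand) is the strongest member.
hsp-3: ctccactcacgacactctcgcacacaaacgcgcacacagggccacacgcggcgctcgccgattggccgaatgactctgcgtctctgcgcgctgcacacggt
hsp-4: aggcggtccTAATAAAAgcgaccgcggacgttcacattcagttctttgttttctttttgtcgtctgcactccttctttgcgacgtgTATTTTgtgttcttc
dnj-14: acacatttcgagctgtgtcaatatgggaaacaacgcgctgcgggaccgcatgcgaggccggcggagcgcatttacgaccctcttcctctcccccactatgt
No run of that length is present at hsp-3 or dnj-14, where A+T content is 34.65% and 41.58%. The hsp-4 stretch has 2 such runs and 55.45% A+T, although its region is far weaker.

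The last stretch is the whole interval between the starts of hsp-16.2 and hsp-16.41, a pair of heat-inducible small heat shock protein genes read in opposite directions (chrV:1804958-1805177, 220 bp, plus strand). Heat shock units are in capitals.
hsp-16.2 to hsp-16.41: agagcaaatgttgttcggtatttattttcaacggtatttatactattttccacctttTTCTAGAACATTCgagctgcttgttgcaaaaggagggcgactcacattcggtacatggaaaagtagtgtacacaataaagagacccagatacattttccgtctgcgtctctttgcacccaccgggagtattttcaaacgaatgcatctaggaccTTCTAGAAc
The summit of the region that both genes share is base 1805118 of chromosome V. The units start 103 and 98 bp on the hsp-16.2 side of it and 51 bp on the hsp-16.41 side. None of them lies within 50 bp of the summit, but all lie inside the shared region (chrV:1804890-1805345).

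HMG-11 regions were listed at 37 of the 51 chaperone genes (72.5%), against 34.4% of all protein-coding genes. A peak was present at 25 chaperone genes (49.0%), against 15.0% of all protein-coding genes (2987 of 19973). Among genes with any listed region, 67.6% of the chaperone genes and 43.5% of all protein-coding genes had a peak. The 25 genes had 24 distinct peaks, because hsp-16.2 and hsp-16.41 share one. At stricter ranks 14 chaperone genes (27.5%) and 8.51% of all protein-coding genes lay among the 2018 strongest regions, 11 (21.6%) and 4.09% among the 1000 strongest, and 6 (11.8%) and 1.98% among the 500 strongest. These shares are descriptions of 2 libraries, and no test was made of them. With a summit given to the nearest protein-coding start alone, 12 chaperone genes (23.5%) kept a peak, against 11.3% of all protein-coding genes.

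**Figure D1:**
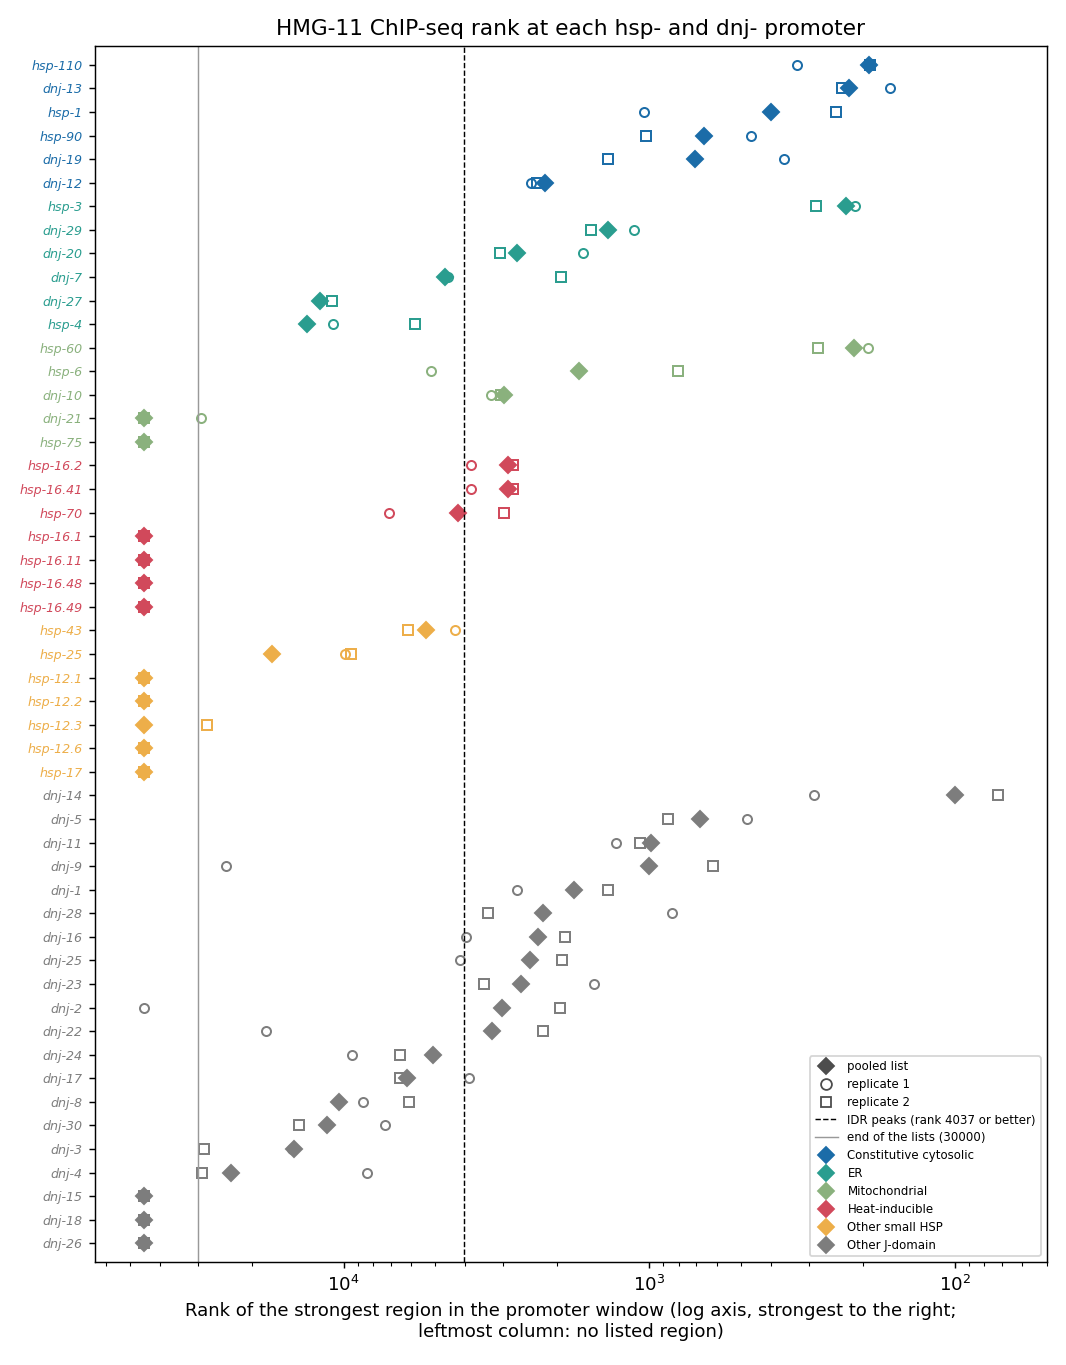
Rank of the strongest HMG-11 region in the promoter window of each of the 51 chaperone genes, on a log axis with the strongest regions to the right. Diamonds are the pooled list, circles replicate 1 and squares replicate 2, and markers in the leftmost column have no listed region. All 6 constitutive cytosolic genes lie right of the dashed line at rank 4037 in the 3 lists, and 5 of the 7 other small heat shock protein genes have no pooled region.

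Peaks were placed unevenly over the classes of chaperones. All 6 constitutive cytosolic genes had one, as did 6 of 11 organelle genes, 11 of 20 other J-domain genes, 2 of 7 heat-inducible genes and 0 of 7 other small heat shock protein genes. By symbol, 17 of 29 dnj genes (58.6%) and 8 of 22 hsp genes (36.4%) had a peak. The classes are small, and 15.0% is the share over all protein-coding genes for each of these counts. With the nearest start alone, peaks remained at 2 of 6 constitutive cytosolic, 2 of 6 ER and 1 of 5 mitochondrial genes. They also remained at 6 of 20 other J-domain and 1 of 7 heat-inducible genes, but at 0 of 7 other small heat shock protein genes. The classes thus differed less under that rule, beside 11.3% of all protein-coding genes. The heat-inducible class includes the 4 hsp-16 genes of an inverted repeat, described below, where absence of summits cannot be read as absence of binding. Both heat-inducible genes with a peak, hsp-16.2 and hsp-16.41, share the same region.

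**Figure D2:**
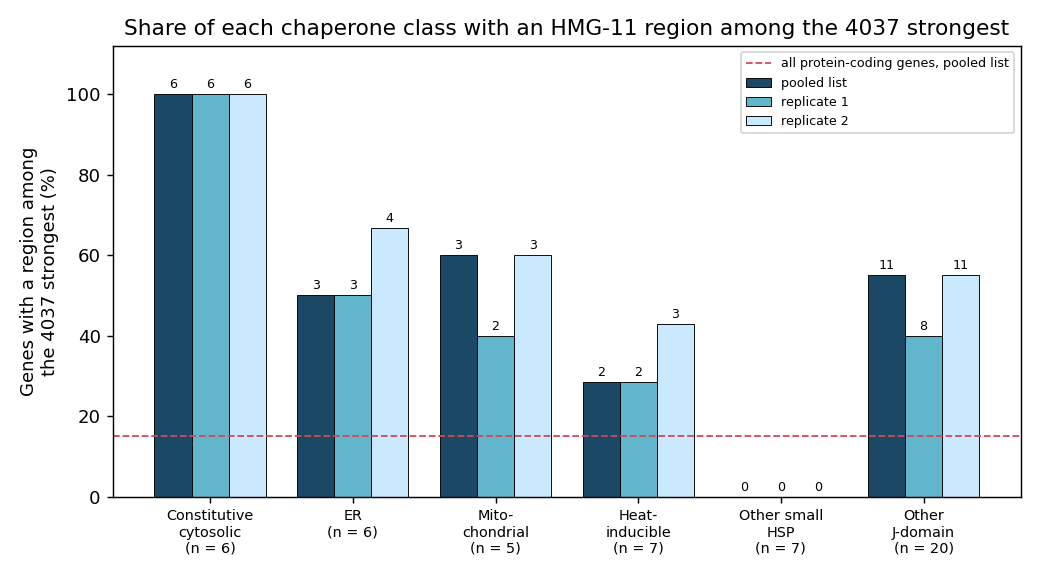
Percentage of genes in each chaperone class with a region among the 4037 strongest of the pooled list, replicate 1 and replicate 2 (bars, with gene counts above them). The dashed line marks all protein-coding genes in the pooled list at 15.0%, and the constitutive cytosolic bars stand at 100% in all 3 lists. With the nearest start alone, which is not drawn, 2 of these 6 genes kept a peak in the pooled list. The heat-inducible class includes the 4 hsp-16 genes of the inverted repeat, where absence of summits cannot be read as absence of binding.

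Constitutive cytosolic chaperones had strong regions in both replicates, with a median pooled rank of 531.5. The hsp-110 gene, which encodes the nucleotide exchange factor of HSP70, ranked 191 in the pooled list (signal 230), 327 in replicate 1 and 189 in replicate 2. Its region (chrIII:8446905-8447360) had its summit 224 bp upstream of the start. The same summit lay 220 bp upstream of rpn-3, a proteasome subunit gene read the other way, so the 2 starts are almost equally far from it. The class B J-domain gene dnj-13 ranked 222 (signal 224), 163 and 234 in the pooled list, replicate 1 and replicate 2, with its summit 177 bp upstream (chrII:11545296-11545751). Its own start was the nearest, and F54D5.9 lay 696 bp away on the opposite strand.

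The gene hsp-1, for the constitutive cytosolic HSP70, ranked 400 in the pooled list (signal 192), 1036 in replicate 1 and 244 in replicate 2. Its summit was 389 bp upstream, in a region (chrIV:17278342-17278797) with no other protein-coding start in reach. The HSP90 gene hsp-90 ranked 663 (signal 166), 462 and 1023 in the same order. That summit lay 340 bp upstream of the downstream one of its 2 annotated starts (chrV:14685592-14686047), inside the gene as drawn from the upstream start, and 335 bp upstream of C47E8.4. When genes were held to their outermost start, hsp-90 dropped to rank 20038 and lost its peak.

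Both class A J-domain genes of the cytosol also had peaks. For dnj-19 the ranks were 709 (signal 163) in the pooled list, 361 in replicate 1 and 1364 in replicate 2. Its summit was 383 bp upstream of dnj-19 but 13 bp upstream of nhr-47, a nuclear receptor gene. The dnj-12 region was the weakest of the class at rank 2190 (signal 101), with 2431 and 2333 in replicates 1 and 2. It lay 429 bp upstream of dnj-12 and 63 bp upstream of mtx-1. Of the 6 genes of this class, 5 shared their region with a gene on the opposite strand, and their own start was nearest for 2, hsp-1 and dnj-13.

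Members of the ER class ranged from among the strongest regions to far below the peaks. The BiP gene hsp-3 ranked 227 in the pooled list (signal 223), 211 in replicate 1 and 284 in replicate 2, with a summit 62 bp upstream of its start (chrX:6091958-6092413) and no other coding gene in reach. Its paralogue hsp-4, the BiP gene known to be induced by ER stress, ranked 13165 (signal 33.7), 10828 and 5841, with a summit 3 bp upstream (chrII:7352420-7352875). The 2 BiP genes were thus separated in every list. The Sec63-like gene dnj-29 had a peak at rank 1363 (replicate ranks 1124 and 1545). Its summit lay 361 bp from dnj-29 and 167 bp from ndua-2, whose start is nearer. A peak at rank 2703 (replicate ranks 1644 and 3072) lay 178 bp upstream of dnj-20, an ERdj3-like J-domain gene. It was shared with ZK1307.8, named by RefSeq as the beta subunit of glucosidase 2. The P58IPK-like gene dnj-7 ranked 4642 (signal 61.8, summit 298 bp upstream), 4543 and 1942 in the pooled list, replicate 1 and replicate 2, and so passed in replicate 2 alone. The thioredoxin-domain gene dnj-27 ranked 11933, 12027 and 10949.

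Of the 5 mitochondrial genes 3 had peaks. For hsp-60, the mitochondrial chaperonin, the ranks were 213 in the pooled list (signal 225), 192 in replicate 1 and 279 in replicate 2. The summit was 640 bp upstream of hsp-60 (chrIII:1618874-1619329) and 173 bp upstream of Y22D7AL.10, which RefSeq names as the mitochondrial 10 kDa heat shock protein, the partner of the chaperonin. The 2 genes are read in opposite directions. The strongest region with hsp-60 as its nearest start ranked 21333. The mitochondrial HSP70 gene hsp-6 ranked 1691, 5176 and 802, which is outside the 4037 strongest in replicate 1 and inside in replicate 2. Its summit lay 434 bp from hsp-6 and 166 bp from C37H5.5, a homologue of nucleolar complex protein 3. The J-domain gene dnj-10 ranked 2991, 3296 and 3055, with a summit 117 bp upstream and no other coding start in reach. No pooled region was listed at hsp-75, the mitochondrial HSP90, or at dnj-21, which RefSeq names TIM14 of the import motor.

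Heat-inducible genes had weaker regions or none. The region between hsp-16.2 and hsp-16.41 ranked 2888 in the pooled list (signal 85.9), 3838 in replicate 1 and 2788 in replicate 2. Its summit was 161 bp upstream of hsp-16.2 and 60 bp upstream of hsp-16.41 (chrV:1804890-1805345). The inducible HSP70 gene hsp-70 stood just outside the peaks at rank 4218 (signal 65.9, summit 134 bp upstream), with 7098 in replicate 1 and 2980 in replicate 2. None of hsp-16.1, hsp-16.11, hsp-16.48 and hsp-16.49 had a listed region in any list. These 4 genes lie in an inverted repeat on chromosome V, whose arms of 1881 bp (chrV:9086861-9088741 and chrV:9089156-9091036) are identical in sequence. No summit of the 3 lists fell in either arm, although 1 pooled region (rank 20528) with its summit beyond the right arm overlapped its end. The sources used here do not say how reads that map to both arms were treated, so the absence of summits there cannot be read as absence of binding.

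The other small heat shock protein genes had no peak. The regions at hsp-43 ranked 5358, 4301 and 6131 in the pooled list, replicate 1 and replicate 2, and those at hsp-25 ranked 17170, 9887 and 9438. No pooled region was listed at hsp-12.1, hsp-12.2, hsp-12.3, hsp-12.6 or hsp-17.

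Among the 20 other J-domain genes dnj-14, a cysteine string protein gene, was the strongest of all 51 chaperone genes. It ranked 100 in the pooled list (signal 260), 289 in replicate 1 and 72 in replicate 2, with its summit 336 bp upstream (chrX:4711856-4712311). The neuroligin-like gene glit-1, read the other way, had its start 195 bp from the same summit. The next were dnj-5 at rank 679 (replicate ranks 478 and 869, summit 761 bp upstream) and dnj-11 at rank 983 (1279 and 1071, summit 253 bp upstream). The gene dnj-11 encodes a homologue of mammalian DNAJC2, which sits on ribosomes, and shares its region with F38A5.2. At dnj-9 the pooled rank of 1000 (summit 223 bp upstream) came with 24206 in replicate 1 and 619 in replicate 2. The fifth, dnj-1, ranked 1758 (2696 and 1360, summit 375 bp upstream). The remaining 6 with a peak were dnj-28, dnj-16, dnj-25, dnj-23, dnj-2 and dnj-22, between ranks 2225 and 3272. The strongest of them, dnj-28, shares its region with supr-1, whose start is 252 bp from the summit, against 322 bp for dnj-28. The dnj-23 summit lay 831 bp upstream of dnj-23 and 103 bp from T24H10.4, read the other way. With a window of 500 bp on either side, or with the nearest start alone, dnj-23 had no peak. Of these genes dnj-25 encodes an auxilin, which frees clathrin from vesicles with HSP70. Listed regions below the peaks were present at dnj-24, dnj-17, dnj-8, dnj-30, dnj-3 and dnj-4, from rank 5084 to 23402. No pooled region was listed at dnj-15, dnj-18 or dnj-26.

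The replicates gave the same call at most chaperone genes. Replicate 1 had 21 of them (41.2%) among its 4037 strongest regions, against 14.4% of all protein-coding genes, and replicate 2 had 27 (52.9%), against 14.8%. At least 1 replicate had 28 chaperone genes (54.9%), against 17.1% of all protein-coding genes. Of those 28, 20 were found in both replicates (71.4%), and over all protein-coding genes 2413 of 3408 were (70.8%). The 8 that differed were dnj-17 in replicate 1 alone and dnj-2, dnj-7, dnj-9, dnj-22, dnj-25, hsp-6 and hsp-70 in replicate 2 alone. For all protein-coding genes the split was 461 in replicate 1 alone and 534 in replicate 2 alone. The widest gap was at dnj-9, where the deposited signal was 11.5 in replicate 1, near the foot of its list, and 102 in replicate 2. At dnj-22, with a pooled rank of 3272 and a summit 168 bp upstream, the ranks were 17873 in replicate 1 and 2217 in replicate 2. The start of natc-1, read the other way, is 71 bp from that summit. For dnj-25 they were 4149 in replicate 1, just outside the threshold, and 1929 in replicate 2, with a pooled rank of 2459 and a summit 119 bp upstream. For dnj-17 they were 3893 and 6510, with a pooled rank of 6182, a summit 172 bp upstream and the start of qdpr-1, read the other way, 399 bp from that summit. The dnj-2 window (pooled rank 3037, summit 981 bp upstream) held no region of replicate 1, although a region ranked 4525 there overlapped the pooled one, and the replicate 2 rank was 1953. For 36 of the 37 chaperone genes with a pooled region, that region overlapped a listed region in each replicate. The pooled list was derived from the same replicates, and this overlap was not counted over all protein-coding genes. It therefore cannot show whether chaperone regions were more reproducible than others.

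**Figure D3:**
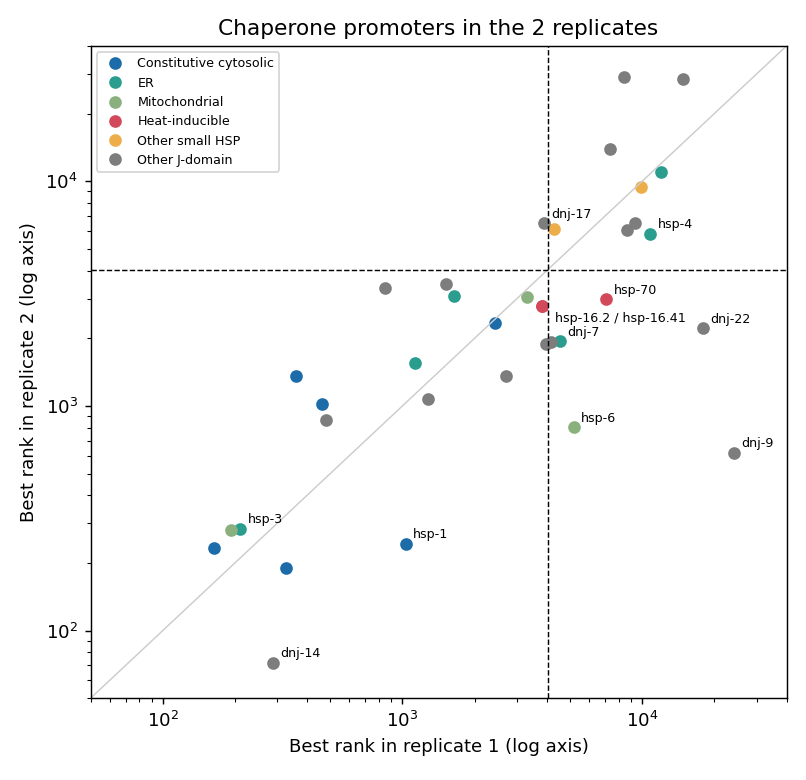
Best rank of each chaperone gene in replicate 1 (x axis) and replicate 2 (y axis), both on log axes, coloured by class, for genes with a region in both lists. Dashed lines mark rank 4037. Genes in the lower right quadrant, among the 4037 strongest in replicate 2 alone, are dnj-7, dnj-9, dnj-22, dnj-25, hsp-6 and hsp-70. Of these, dnj-9 and dnj-22 lie farthest to the right.

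Peaks of chaperone genes lay upstream of the nearest transcript start of the gene in 25 of 25 cases (100%), beside 94.4% for all protein-coding genes with a peak. Held to their outermost start, hsp-90 and dnj-16 had no peak, as these summits lie 902 and 303 bp downstream of it. The median distance of the chaperone peaks was 322 bp upstream, and 48.0% lay within 300 bp, whereas over all protein-coding genes with a peak the median was 234 bp and 55.4% lay within 300 bp. Many were shared between neighbours: for 18 of the 25 chaperone genes with a peak (72.0%) the peak lay in the window of another protein-coding gene, in each case with one on the opposite strand. Over all protein-coding genes with a peak 49.0% shared it, 46.3% with a gene on the opposite strand. The chaperone start was the nearest protein-coding start for 11 of the 25 (44.0%), against 74.3% over all protein-coding genes with a peak. To which of the 2 neighbours such a region belongs cannot be told from these lists.

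**Figure D4:**
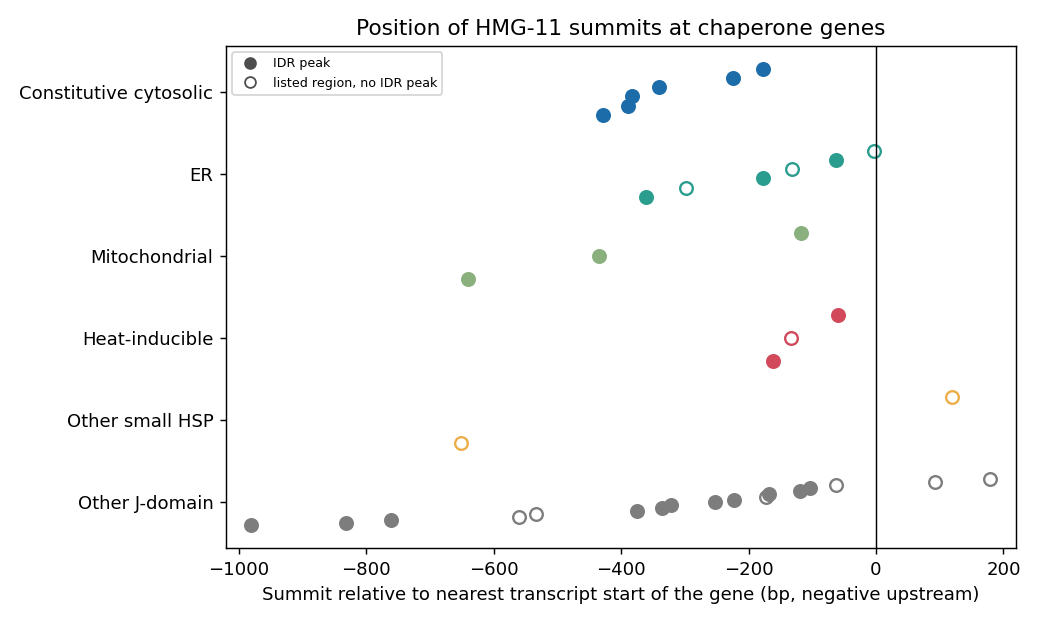
Position of the strongest pooled summit relative to the nearest transcript start of each chaperone gene with a listed region, in bp (negative is upstream), by class. Filled points are peaks and open points weaker regions, and all 25 peaks lie left of that nearest start.

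The sequence under the peaks was not rich in A and T. Median A+T content within 50 bp of the summit was 55.45% over the chaperone genes with a peak (from 34.65% at hsp-3 to 70.3% at dnj-1), 52.48% over all protein-coding genes with a peak and 62.38% over those with a weaker listed region. The short A/T word AATT was present at 60% of chaperone genes with a peak, beside 51.9% of all protein-coding genes with a peak and 69.2% of those with a weaker listed region. AAATTT was present at 16%, beside 11.4% and 22.4%. Over the 12 chaperone genes with a weaker listed region the median A+T content was also 55.45%. AATT was present at 58.3% of those 12 and AAATTT at 8.33%.

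A heat shock unit of either kind was present within 50 bp of the summit at 5 of the 25 chaperone genes with a peak (20%), namely dnj-13, dnj-28, hsp-1, hsp-110 and hsp-90. It was present at 6.56% of all protein-coding genes with a peak and at 10.8% of those with a weaker listed region. Both strands are covered, since each unit reads the same on either, and the 2 kinds can overlap. GAANNTTC was found at 4 of the chaperone genes with a peak (16%, beside 3.88%) and TTCNNGAA at 3 (12%, beside 3.52%). Of these 5 genes, 4 belong to the constitutive cytosolic class, and the sequences of hsp-110, hsp-1 and hsp-90 printed above show the units. A longer element of 3 alternating blocks (GAA, TTC and GAA, or TTC, GAA and TTC, each 2 bases apart) was present from 250 bp upstream to 50 bp downstream of the outermost start at 11 chaperone genes (21.6%), against 1.98% of all protein-coding genes. In the full window of 1000 bp upstream to 200 bp downstream it was present at 15 chaperone genes (29.4%), against 7.68%. Both counts include the 4 genes of the inverted repeat, whose arms are identical in sequence, and hsp-16.2 and hsp-16.41, which share an interval. The same elements are therefore counted for several genes. Of those 15 genes 9 had a peak (60%), and of the 36 without the element 16 had one (44.4%). Over all protein-coding genes 17.7% of the 1534 with the element and 14.7% of those without had a peak. The 6 genes with the element and no peak were dnj-24, hsp-70 and the 4 genes of the inverted repeat. A match of letters is not a measured HSF-1 site.

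Co-chaperones and stress regulators that work with these genes were described from a list of 32 symbols, of which 31 were found. Of these 18 had a peak, 17 a region among the 4037 strongest in replicate 1 and 19 in replicate 2, while the shares over all protein-coding genes in these lists were 15.0%, 14.4% and 14.8%. Partners of HSP90 and HSP70 were among them: ahsa-1, an activator of the HSP90 ATPase, at rank 673 (summit 230 bp upstream), hip-1 at 951, the HSP70-HSP90 adaptor gene sti-1 at 1474, the exchange factor gene bag-1 at 1598 and the ubiquitin ligase gene chn-1 at 2027. The p23 gene daf-41 and cdc-37, which brings kinases to HSP90, followed at 2217 and 2281. Among other partners of HSP90, the phosphatase gene pph-5 ranked 4110 in the pooled list, just outside the peaks, with 3739 in replicate 1 and 3589 in replicate 2. The myosin chaperone gene unc-45 ranked 5648, 5621 and 5131 and had no peak. The ER had enpl-1, its HSP90, at rank 422, and 4 regulators of the ER stress response, atf-6 at 117, xbp-1 at 813, ire-1 at 1290 and pek-1 at 3025. For the mitochondrial stress response atfs-1 ranked 781 and ubl-5 ranked 3125, while dve-1 and haf-1 had listed regions without a peak, at 5727 and 9053. Of the prefoldin genes pfd-1, pfd-3, pfd-4 and pfd-6 had peaks, between ranks 953 and 3435, and pfd-2 and pfd-5 did not. The pfd-4 peak is the one in the dnj-2 window and lies 246 bp from pfd-4. In replicate 1 pfd-4 and pfd-6 were outside the 4037 strongest, at ranks 4525 and 6767. The summits at ahsa-1, daf-41, pfd-1 and pfd-4 lay nearer to another protein-coding start. That at daf-41, for example, was 393 bp from daf-41 and 93 bp from toc-1. With the nearest start alone 14 of the 31 related genes kept a peak, against 11.3% of all protein-coding genes.

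Several genes that control the heat shock response had weak regions or none within 1000 bp upstream. The strongest region in the hsf-1 window ranked 15475, 19075 and 13374 in the pooled list, replicate 1 and replicate 2. No pooled region was listed at hsb-1, an HSF-1 binding protein, or at ddl-1, and ddl-2 ranked 5171. With a window reaching 2000 bp upstream, hsf-1 had a peak at rank 2220, 1961 bp upstream. In that window ddl-1 had one at rank 2614, 1245 bp upstream. The wider window took the related genes with a peak from 18 to 20 of 31. Over all protein-coding genes the share rose from 15.0% to 19.1%. The inducible HSP70 genes F44E5.4 and F44E5.5 share a region at rank 6974 (15670 in replicate 1 and 5773 in replicate 2). With hsp-70, none of these 3 inducible HSP70 genes had a peak in the pooled list, although hsp-70 was among the 4037 strongest in replicate 2. The HSP70-family gene stc-1 had none either, at rank 6695. The HSP70 genes hsp-1 (cytosol), hsp-3 (ER) and hsp-6 (mitochondria) each had a peak in the pooled list, while hsp-4 (ER) had none. However, hsp-6 did not reach the 4037 strongest in replicate 1. Its summit also lay nearer to C37H5.5 (166 bp) than to hsp-6 (434 bp), and with the nearest start alone hsp-6 lost its peak.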

How the data were processed

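HMG-11 ChIP-seq was analysed in 2 biological replicates of 1 group. Per the file headers, the deposited lists hold candidate regions of each replicate, of both replicates pooled, and peaks thresholded by IDR. Each region carries a signal value made by the authors, on a scale that is not stated, and a summit offset. Aligner and caller: not given in the sources used here. Read numbers are unknown too, so no interval for depth can be given. Lists on ce11 were used, the ce10 lists were not, and no coordinate was converted. Of the 30000 pooled regions 29848 are 456 bp wide.

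Genes and transcript starts came from Ensembl release 115, and sequence and product names from the RefSeq assembly WBcel235. Regions were ranked by signal, and each gene took its best-ranked summit from 1000 bp upstream to 200 bp downstream of any transcript start. A region could count for several genes. Counts stand beside those over all protein-coding genes, and no test was made, because genes are not replicates. Ensembl gives both copies of the hsp-16 inverted repeat the same symbols, so RefSeq names were taken by gene ID there.

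The classes follow textbook roles. Members, classes and the list of related genes were chosen with earlier results of these data known. Every member could be named. Pooled and replicate ranks are given for members of the constitutive, organelle and heat-inducible classes with a pooled region. They are also given for the 5 strongest other members, members that differ between replicates and those within 500 ranks of the threshold. Signal and summit distance are given for only some of these. Related genes with a peak, and genes that share the strongest region of a named member, could also be named; related genes without a peak were named after their values were seen. Alternatives were other windows, the nearest or outermost start, 2018 peaks, any overlapping base, wider sequence flanks, reciprocal overlap and each replicate alone. Assignment was tested on made-up genes. Python 3.11.15, pandas 2.3.3, numpy 2.4.6 and matplotlib 3.10.9 were used.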

Additional observations from a re-analysis of the deposited data

How the results depend on the processing

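The count of 25 chaperone genes with a peak stayed between 21 and 25 with a window of 500 bp on either side, a window reaching 2000 bp upstream, the outermost start, or any overlapping base. Of all protein-coding genes, 2987 had a peak in the main setting, and 2482, 3816, 2778 and 3240 under these settings in the same order. With the window reaching 2000 bp upstream, the share over all protein-coding genes rose from 15.0% to 19.1%, while the chaperone share stayed at 49.0%. The chaperone count was 12 with the nearest start alone, 16 with starts up to 100 bp farther than the nearest (chosen after seeing the data) and 14 among the 2018 strongest peaks. The matching counts over all protein-coding genes were 2250, 2487 and 1700. The chaperone count was 25 of the remaining genes without the 4 hsp-16 genes of the inverted repeat (also chosen after seeing the data). With 1 replicate left out it ranged from 21 to 27. Without replicate 2 the genes lost were dnj-2, dnj-9, dnj-22, dnj-25 and hsp-6, and dnj-17 was gained. Without replicate 1 dnj-7 and hsp-70 were gained.

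The nearest start alone left 2 constitutive cytosolic, 1 mitochondrial, 1 heat-inducible and 6 other J-domain genes with a peak. Starts within 100 bp of the nearest left 1 mitochondrial and 1 heat-inducible gene. The 2018 strongest peaks left 0 heat-inducible genes, 5 other J-domain genes and 11 related genes. The other class counts stayed within 1.5 times their value. With 1 replicate left out, the median rank of the listed chaperone genes, 2617 in the pooled list, ranged from 2275 to 3838, and their median summit distance, −224 bp, from −338.5 to −248 bp. Median A+T content over the chaperone genes with a peak was 55.45%, and 60.7% with 100 bp on either side of the summit. The cause of these shifts was not tested, except that fewer regions or starts can pass under the stricter settings.

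No paired analysis was possible because the 2 replicates belong to 1 group. Regions weaker than those listed were not seen, and with 2 libraries and no read numbers no error can be given for a rank.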

Other observations

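A pair of words was searched at the summits after the sequences had been read. GACGCAG, or its reverse complement CTGCGTC, lay within 50 bp of the summit at 5 of the 25 chaperone genes with a peak (20%), namely hsp-3, dnj-5, dnj-16, hsp-16.2 and hsp-16.41, of which hsp-16.2 and hsp-16.41 share 1 peak. It was present at 11.3% of all protein-coding genes with a peak and 3.92% of those with a weaker listed region. GAGAGA, or TCTCTC, lay at 5 chaperone genes with a peak (20%), namely hsp-1, dnj-5, dnj-13, dnj-23 and dnj-25, beside 25.1% and 12.9% of the same 2 sets. The printed stretches of hsp-3 and of hsp-16.2 to hsp-16.41 hold CTGCGTC, and that of hsp-1 holds TCTCTC. The chaperone shares thus include sequences read before the words were chosen, and they are not independent evidence for either word.

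Chaperone genes with a peak were found on each of the 6 chromosomes, with 7 of 13 on V, 5 of 7 on II, 4 of 9 on III, 4 of 8 on IV, 3 of 9 on I and 2 of 5 on X. Over all protein-coding genes those with a peak were 456 of 4994 on V, 421 of 3449 on II, 608 of 2640 on III, 492 of 3281 on IV, 601 of 2878 on I and 409 of 2731 on X. Inside genes but outside the promoter windows, peaks were present in dnj-24 (rank 3026) and in dnj-20 (rank 3795). Such peaks were not counted over all protein-coding genes, so whether this is more or less than usual cannot be told. Both genes on chromosome V that RefSeq names hsp-16.20 and hsp-16.21 are not counted among the 51, since Ensembl gives them no such symbol, and no region was listed at either in any list.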
